A study of Homo sapiens with 3 samples.

Results

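TRIM29, EMP1 and SFN, which squamous epithelia express strongly, were higher in both microRNA-overexpressing cultures of the colon cancer line LvM3b than in control cells. SFN stayed short of 2-fold in both. No probe of DSP, JUP, PPL, EVPL, PKP2, PKP3 and DSG2, which build the desmosome, differed from control by 2-fold. DSG2 also lay above control, by 0.16 and 0.24 on the log2 scale. Of all probes tested, 0.574% and 0.983% were at least 2-fold higher with miR-483-5p and miR-551a, and 0.69% and 0.954% lower. The absence of 2-fold differences in so few probes therefore does not set the desmosome genes apart. These 10 genes were taken by name as a set of desmosome and squamous epithelial genes, and every probe whose target name in the deposited non-normalized table matched 1 of them was kept. This gave 18 of 48803 probes and 10 of 25200 gene symbols. The members were selected on their measured differences from control in these same arrays, so the comparisons with control describe the members and test nothing.

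LvM3b is labelled as a colon adenocarcinoma cell line. The control group was labelled only as control, another group overexpressed miR-483-5p (named miR-483 in the sample label) and the last overexpressed miR-551a. All were grown in DMEM with 10% FBS and taken for RNA at about 70% confluency on a 10 cm dish. How the microRNAs were overexpressed, and whether the lines were clones or pools, is not given in the sources used here. Each group had 1 Illumina bead array and no replicate, so no difference below carries an error or a p-value, and with 1 culture per group a culture effect and an effect of the microRNA cannot be told apart. In RNA from whole cultures, fewer expressing cells and less RNA per cell cannot be told apart either.

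Desmosomes are spot junctions that tie the keratin filaments of neighbouring epithelial cells together. Desmosomal cadherins such as DSG2 bridge the gap between cells, armadillo proteins such as JUP and the plakophilins bind the cadherin tails, and plakins such as DSP attach the keratins. Colonic epithelium is simple epithelium, whose desmosomes rest on DSG2 and DSC2, whereas stratified squamous epithelium adds further cadherins, plakins of the cornified envelope and genes such as SFN and TRIM29.

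The mature sequence of hsa-miR-551a (RefSeq, GRCh38.p14, chr1:3560710-3560730, minus strand) is shown because it is 1 of the 2 microRNAs whose overexpression defines the groups. Capitals mark its seed, bases 2 to 8.
hsa-miR-551a: gCGACCCAcucuugguuucca

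The median intensity over all probes was 84.9 to 88.0 on the 3 arrays, and 13291 to 13925 probes had a detection score above 0.99, the level called detected here. Of 11 colon epithelium markers on the array 10 were detected on every array, EPCAM and CDH17 among them, and the summed intensity of the list ran from 38726 in control to 43908 in the miR-551a array. CDX2, a transcription factor of intestinal identity, differed from control by -0.41 with miR-483-5p and by -0.90 with miR-551a on the log2 scale. GPA33, a surface antigen of intestinal epithelium, was 2.29-fold and 2.57-fold lower. Other markers lay above control, among them KRT19 (0.36 and 0.70), VIL1 (0.30 and 0.19) and KRT8 (0.76 and 1.49). In all 6 and 5 of the 10 genes were above control, with medians of 0.19 and 0.06. Of 6 keratinocyte markers KRT5, KRT14, DSG3 and IVL were detected on no array. A COL17A1 probe was detected on every array, at 203.7 in control, 189.8 with miR-483-5p and 175.6 with miR-551a. TP63 was detected in control and with miR-551a. The summed intensity of that list was 704 to 730. No endothelial marker of 5 was detected, with a summed intensity of 513 to 558. Leukocyte markers gave 2 of 8 detected genes (2128 to 2726 summed) and fibroblast markers 4 of 10 (1500 to 1577 summed). These sums take in the raw intensity of every probe, undetected ones included. They therefore rise with the number of probes and do not compare the lists with each other. The CD68 probes detected on all arrays were 1.49-fold and 1.30-fold higher with miR-483-5p, and 1.51-fold and 1.65-fold higher with miR-551a. A further CD68 probe was detected only with miR-551a, at least 1.49-fold above control. The probes of LYZ, the other detected leukocyte marker, were 1.57-fold and 1.39-fold higher with miR-483-5p and differed by -0.14 and -0.04 with miR-551a. LUM was detected only in the overexpressing arrays, at least 1.58-fold higher with miR-483-5p and at least 2.67-fold higher with miR-551a, and FAP only in control, at least 2.18-fold and 2.41-fold lower. Without background correction no probe of the leukocyte and fibroblast lists was past 2-fold. The part of other cell types in the results below was not tested.

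Of the 18 member probes, 10 were detected on all 3 arrays, 3 on some and 5 on none. Every one of the 10 genes had a probe detected on at least 1 array. The 5 undetected probes were single probes of TRIM29, DSP and JUP and a pair of PKP3, each below the lowest detected intensity of the control array (110.3), and no ratio is given for them. Probes of 1 gene can therefore differ in whether they measure it at all, as the plot of intensities shows.

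**Figure D1:**
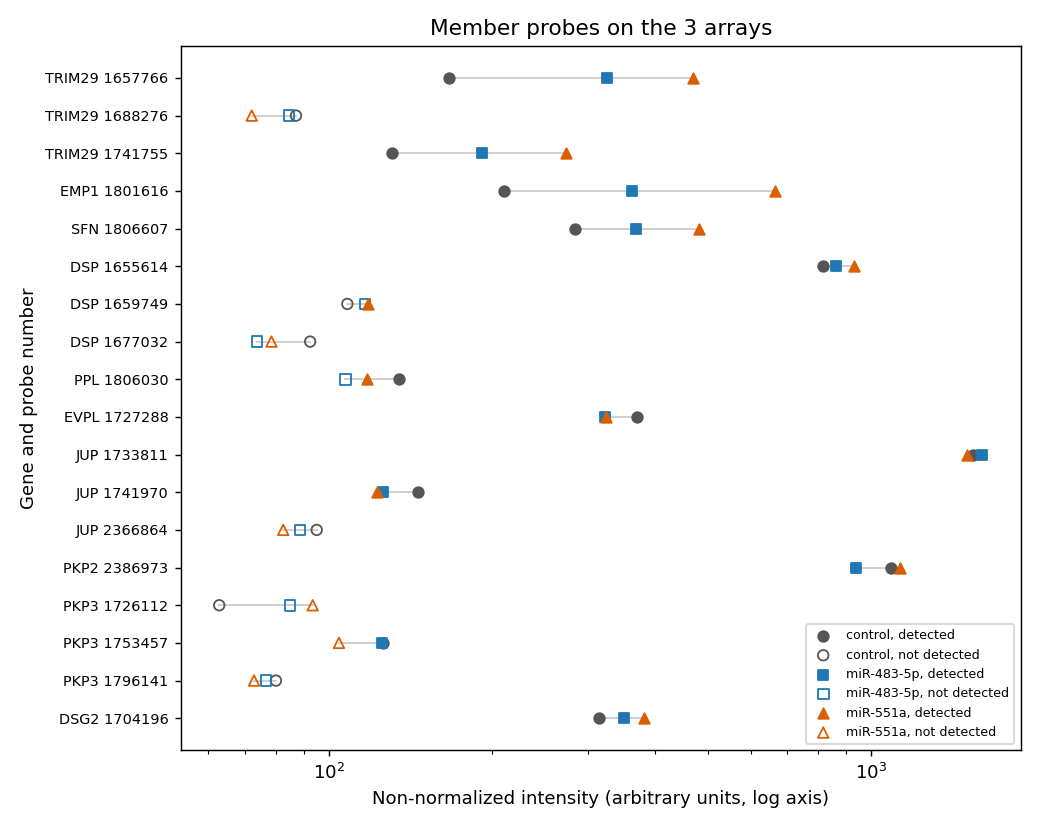
Non-normalized intensity (log axis) of the 18 member probes on the control (circles), miR-483-5p (squares) and miR-551a (triangles) arrays; open symbols are not detected and the grey line spans the arrays. Both detected TRIM29 probes and the single probes of EMP1 and SFN are ordered control, miR-483-5p, miR-551a, whereas the DSP probe at 815 to 929 and the JUP probe at 1506 to 1604 hardly spread.

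EMP1 encodes a membrane protein with 4 transmembrane helices, of the PMP22 family, that is abundant in squamous epithelium. Its single probe read 210.7 in control, 362.2 with miR-483-5p and 666.4 with miR-551a before normalization. All 3 values were detected, with control lowest and miR-551a highest. After background correction and quantile normalization, EMP1 was 2-fold higher with miR-483-5p (log2 difference 1.00, at the 2-fold line itself) and 3.81-fold higher with miR-551a (1.93). Of 13759 probes tested for miR-483-5p 77 lay higher than EMP1, and of 14039 tested for miR-551a 11 did. Among probes in the same decile of brightness the central 95% of differences ran from -0.65 to 0.60 for miR-483-5p and from -0.74 to 0.71 for miR-551a, so both EMP1 values lay beyond that span.

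TRIM29, also called ATDC, is a tripartite motif protein of the basal layers of stratified epithelium. Probe ILMN_1657766 read 166.4 in control, 325.3 with miR-483-5p and 468.7 with miR-551a. Probe ILMN_1741755 read 130.7, 191.4 and 274.4 in the same order. The order of the arrays was the same at both probes, and the sizes differed. At the first probe TRIM29 was 2.47-fold higher with miR-483-5p (1.30) and 3.64-fold higher with miR-551a (1.86). At the second it was 1.84-fold higher (0.88) and 2.94-fold higher (1.55). Only 18 and 13 tested probes lay higher than the first probe in the respective comparisons, and 119 and 26 lay higher than the second. The third probe, ILMN_1688276, read 87.0, 84.5 and 72.1 and was not detected on any array.

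SFN encodes 14-3-3 sigma, an epithelial cell cycle regulator that p53 induces. It read 284.2 in control, 368.4 with miR-483-5p and 482.5 with miR-551a, the same order as EMP1 and TRIM29 but over a smaller span. It was 1.35-fold higher with miR-483-5p (0.43) and 1.75-fold higher with miR-551a (0.81), both short of 2-fold. Probes of like brightness spanned -0.64 to 0.60 and -0.74 to 0.71 in their central 95%, so the miR-483-5p value lay within that range and the miR-551a value beyond it.

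The plakins link the desmosome to keratin filaments and, in stratified epithelium, form part of the cornified envelope. DSP, desmoplakin, read 815.3 in control, 862.6 with miR-483-5p and 928.6 with miR-551a at probe ILMN_1655614. These values became nearly level after normalization, with differences of 0.02 and 0.05. A second DSP probe, ILMN_1659749, was detected only with miR-551a, where it was at least 1.09-fold higher than control. PPL, periplakin, read 134.9 in control, 107.3 with miR-483-5p and 117.4 with miR-551a. Control was highest, and the miR-483-5p value was not detected. PPL was at least 1.37-fold lower with miR-483-5p (measured difference -0.77) and 1.40-fold lower with miR-551a (-0.48). EVPL, envoplakin, the partner of periplakin, read 370.3, 323.4 and 325.0. Both overexpressing arrays lay below control, 1.21-fold (-0.27) and 1.26-fold (-0.33), with 2328 of 14039 probes lower still in the latter comparison.

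The armadillo proteins sit between the cadherin tails and the plakins. JUP, plakoglobin, which adherens junctions also contain, read 1539.9 in control, 1604.2 with miR-483-5p and 1505.6 with miR-551a at probe ILMN_1733811. Its second detected probe, ILMN_1741970, read 146.2, 125.7 and 122.8. The first probe put both arrays near control (-0.01 and -0.19) and the second put them lower (-0.46 and -0.56), so the probes of JUP disagreed in size. Both values of the second probe lay inside the central 95% of probes of like brightness, -0.81 to 0.76 and -0.90 to 0.86.

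PKP2, the plakophilin of simple epithelium and heart, read 1090.5 in control, 936.6 with miR-483-5p and 1129.0 with miR-551a. Its differences from control were -0.30 and -0.09, and here the miR-483-5p array was the lowest. PKP3, which most epithelia express, read 125.8, 125.5 and 104.4 at probe ILMN_1753457, and its other probes were undetected. With miR-551a it was below the detection level and was at least 1.32-fold lower (measured difference -0.67), while with miR-483-5p it differed by -0.04.

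DSG2, the cadherin found in all desmosome-bearing tissues, read 314.7 in control, 350.6 with miR-483-5p and 381.3 with miR-551a. It was 1.12-fold (0.16) and 1.18-fold (0.24) higher, with 3933 and 3404 tested probes higher still. The order of its 3 arrays was that of EMP1, TRIM29 and SFN, with a far smaller span.

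**Figure D2:**
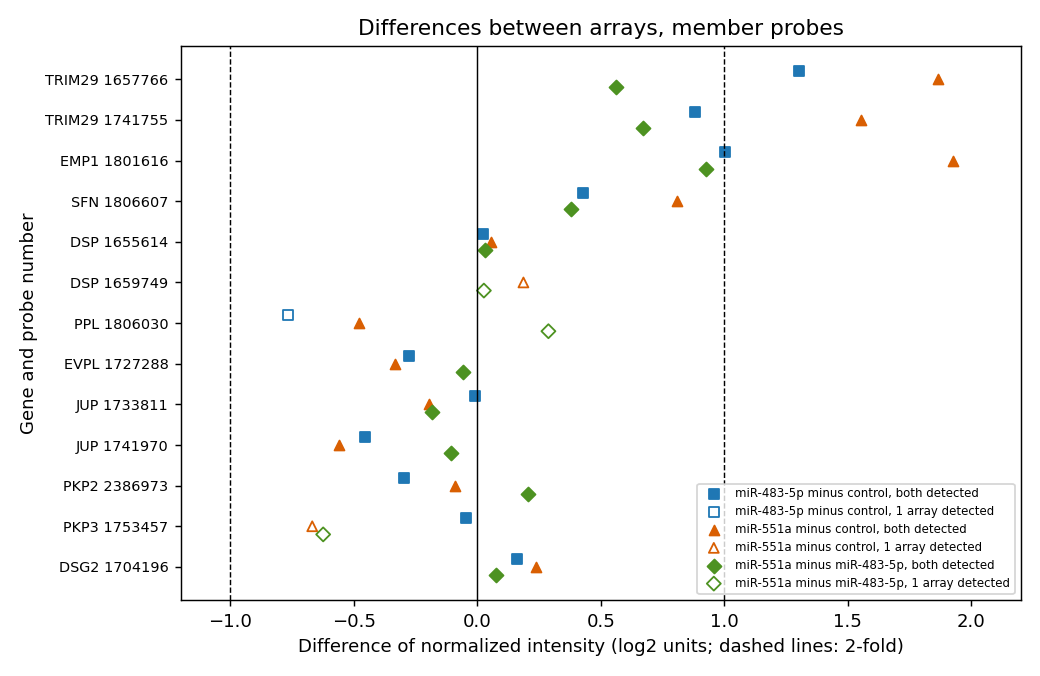
Differences of normalized intensity in log2 units for the 13 member probes detected on at least 1 array; dashed lines mark 2-fold, and open symbols have 1 of the 2 arrays undetected. TRIM29, EMP1 and SFN lie to the right in all 3 comparisons, and DSG2 and DSP do so too, nearer to the zero line. Only TRIM29 and EMP1 probes reach 2-fold, in the comparisons with control. Neither SFN nor any probe of the 7 desmosome genes does in either direction.

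By probe, 2 of 12 tested member probes were at least 2-fold higher with miR-483-5p, where 0.574% of all 13759 tested probes were, and 3 of 13 with miR-551a, where 0.983% of 14039 were. These were probes of TRIM29 and EMP1. Without background correction neither probe was 2-fold higher with miR-483-5p (0.94 for TRIM29 and 0.77 for EMP1), while all 3 remained so with miR-551a. None was 2-fold lower, against 0.69% and 0.954% of all tested probes. The members were chosen with these values known, so the shares are set side by side and nothing is read from them. Both comparisons use the same control array and are not separate observations.

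Taken by gene, with the detected probes of a gene averaged, 5 of the 10 genes lay above control and 5 below in each comparison, and the medians were -0.01 for miR-483-5p and 0.01 for miR-551a. The medians over all tested genes were -0.01 (10806 genes) and 0.00 (10991 genes), and 48.8% and 49.3% of them lay above control. The set as a whole was therefore centred where all genes were, with its members spread to both sides. TRIM29, EMP1 and SFN had medians of 1.00 and 1.71, and the 7 desmosome genes -0.23 and -0.33, of which 5 of 7 lay below control in each comparison (4 of 7 with miR-551a under median scaling without background correction).

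The overexpressing arrays were also compared with each other, which leaves out the control. The members were selected on values of these same arrays, so this comparison too describes them and tests nothing. EMP1 was 1.90-fold higher with miR-551a than with miR-483-5p (0.93), and 56 of 13749 tested probes lay higher. TRIM29 was 1.48-fold (0.56) and 1.59-fold (0.67) higher at its detected probes, and SFN 1.30-fold higher (0.38). None of the 13 tested member probes reached 2-fold in this comparison, where 0.305% of all tested probes passed it upward and 0.182% downward. EMP1 and both TRIM29 probes lay above the central 95% of probes of like brightness, whose upper ends were 0.44, 0.42 and 0.52, and SFN lay within it (upper end 0.44).

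The desmosome genes lay on both sides of 0 between these arrays. DSG2 differed by 0.08, EVPL by -0.06, the DSP probes by 0.03 each and the JUP probes by -0.18 and -0.10. PKP2 was 1.15-fold higher with miR-551a (0.21), and PPL, undetected with miR-483-5p, differed by 0.29. PKP3, undetected with miR-551a, was at least 1.28-fold lower (measured -0.62). The measured value lay within the central range of probes of like brightness, -0.90 to 0.91. The bound is smaller than the 1.30-fold of SFN, so the sizes of PKP3 and SFN cannot be ranked. The median over the 10 genes was 0.14 against 0.00 over 10771 genes.

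**Figure D3:**
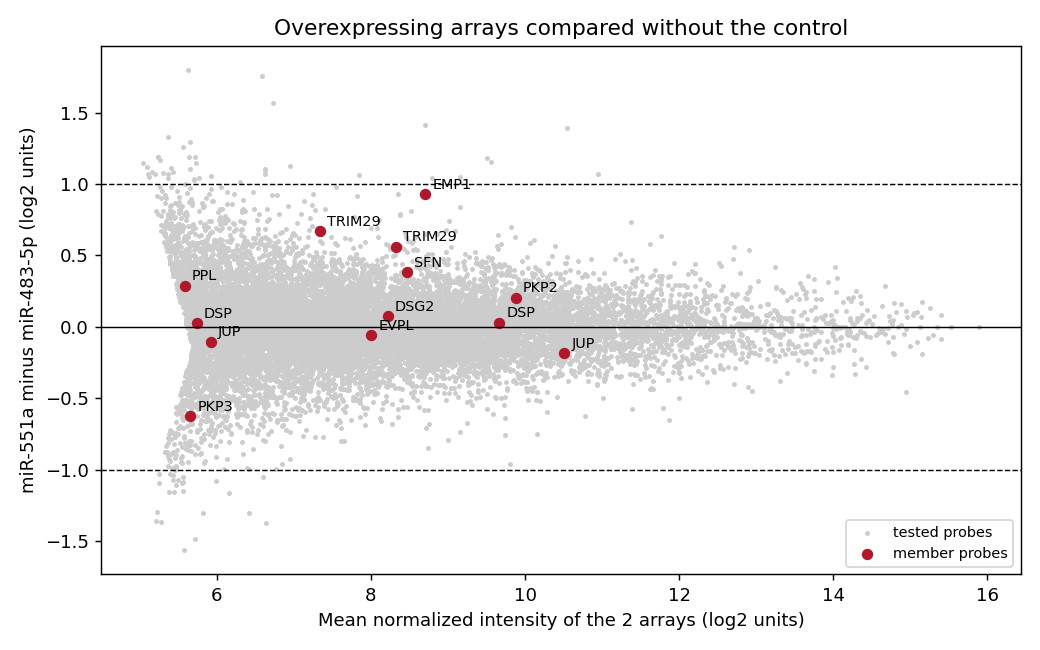
Difference between the miR-551a and miR-483-5p arrays (log2 units) against their mean normalized intensity for 13749 tested probes (grey) and the 13 tested member probes (red); dashed lines mark 2-fold. EMP1 at 0.93 and the TRIM29 probes at 0.56 and 0.67 lie at the upper edge of the grey cloud, and DSP, DSG2 and EVPL lie within 0.08 of 0.

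The genes nearest to EMP1 and TRIM29 were sought in the plane of both differences from control, by Euclidean distance in log2 units. The search covered 12325 probes detected on all 3 arrays, and genes whose symbol begins with LOC were passed over in the ranking. With 3 arrays and a shared control this likeness rests on 2 numbers per probe. EMP1 and TRIM29 were selected on these same differences, and few probes lie as high. Their closeness to each other therefore follows in part from the selection and tests nothing. EMP1 lay nearest to KRT80, a keratin of differentiating epithelium (distance 0.13), then to TRIM29 itself (0.31) and to S100A10, the annexin A2 partner (0.36). The first TRIM29 probe lay nearest to S100A10 (0.06), then to EMP1 (0.31) and to the fatty acid binding protein FABP5 (0.34). KRT80 read 140.4, 221.6 and 409.7 in control, miR-483-5p and miR-551a, and S100A10 read 2168.3, 5639.6 and 8126.7.

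Wider gene lists of the junction showed where the members stand among their relatives. Among 7 desmosomal cadherins DSC2, DSG2 and DSG4 were detected. DSC2, the partner of DSG2 in simple epithelium, differed by 0.32 and 0.02 from control at the probe reading 742.6 in control and by 0.76 and 0.44 at the other. None of 4 tested cadherin probes reached 2-fold, nor did any of 5 armadillo probes, which include PKP4 at -0.26 and -0.16. Of 7 plakin genes 6 were detected and none reached 2-fold; MACF1, a plakin that links actin to microtubules, differed by 0.15 and -0.04. DST, undetected with miR-483-5p, differed by 0.19 with miR-551a. The gene medians, miR-483-5p first, were 0.26 and 0.23 for cadherins, -0.25 and -0.27 for armadillo proteins and -0.31 and -0.19 for plakins. The cadherin median of 0.26 is the value of DSG4 alone. DSG4 read 126.8, 141.2 and 122.2, near the lowest detected intensities, and differed by -0.18 with miR-551a. The members are part of these lists.

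PERP, a desmosome protein that p53 and p63 induce, read 743.3 in control, 1394.9 with miR-483-5p and 1093.9 with miR-551a. It was named after its values were seen. Its differences were 0.90 and 0.45, so it was higher with miR-483-5p than with miR-551a, the opposite order to EMP1 and TRIM29. Pinin, PNN, differed by 0.00 and -0.07.

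Genes of other junctions were counted in the same way. No hemidesmosome probe of 14 and 16 tested, and no tight junction probe of 17 and 17, reached 2-fold. Of 17 and 18 adherens junction probes 1 did in each comparison, a NECTIN1 (listed as PVRL1) probe undetected in control and at least 1.57-fold and 1.30-fold higher, and none did without background correction. With 0.574% and 0.983% of all tested probes 2-fold higher and 0.69% and 0.954% lower, lists of this size hold too few probes for these counts to set the junctions apart. CDH1, E-cadherin, which read 4261.6 in control, differed by -0.20 and -0.24. Their medians were -0.25 and 0.11 for hemidesmosome, -0.11 and -0.07 for adherens junction and -0.20 and -0.27 for tight junction genes.

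Several keratins, the filaments that desmosomes anchor, differed far more than the desmosome genes, and others did not. Of tested probes for stratified and wound keratins, 3 of 7 were at least 2-fold higher with miR-483-5p and 7 of 9 with miR-551a. Among all tested probes 0.574% and 0.983% were. The gene medians of these keratins were 0.99 and 2.0. KRT10, which read 734.7 in control, differed by 0.16 and 0.10, and KRT23, detected only in control, by -0.18 and -0.38. KRT17 was 12.5-fold and 32.8-fold higher, KRT6B 3.77-fold and 7.76-fold, and KRT75 1.66-fold and 2.14-fold. KRT16 was undetected in control and at least 1.24-fold and 3.67-fold higher. KRT6A and KRT13 were detected only with miR-551a, at least 1.86-fold and 1.16-fold above control. The basal keratins KRT5 and KRT14 were not detected. Among simple keratins KRT8 was 1.69-fold and 2.81-fold higher, and the gene median was 0.36 and 0.82. The KRT18 probes differed by 0.33 and 0.21 with miR-483-5p and by 0.64 and 0.05 with miR-551a.

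Squamous differentiation genes were examined next. Of 40 cornified envelope genes 39 were on the array and 11 detected. ANXA1, an annexin, was 1.89-fold and 2.94-fold higher, and the protease inhibitor PI3 2.01-fold and 1.78-fold lower, short of 2-fold in both without background correction. No other of 11 tested probes reached 2-fold in either comparison, and the medians were 0.34 and 0.25. Of 18 squamous transcription factors 13 were detected, and none of 15 tested probes reached 2-fold. Of all tested probes 0.574% and 0.983% were 2-fold higher and 0.69% and 0.954% lower, so that count says little. In each comparison 11 of 13 genes lay below control (medians -0.18 and -0.27), or 9 of 13 with miR-483-5p under median centring. Of all tested genes 48.8% and 49.3% lay above control. TP63 (listed as TP73L), the master factor of squamous epithelium, read 129.5, 114.4 and 118.1. It was undetected with miR-483-5p, at least 1.27-fold lower (measured -0.44), and differed by -0.35 with miR-551a. These readings lay near the lowest detected intensities of the respective arrays (110.3, 117.6 and 113.0).

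**Figure D4:**
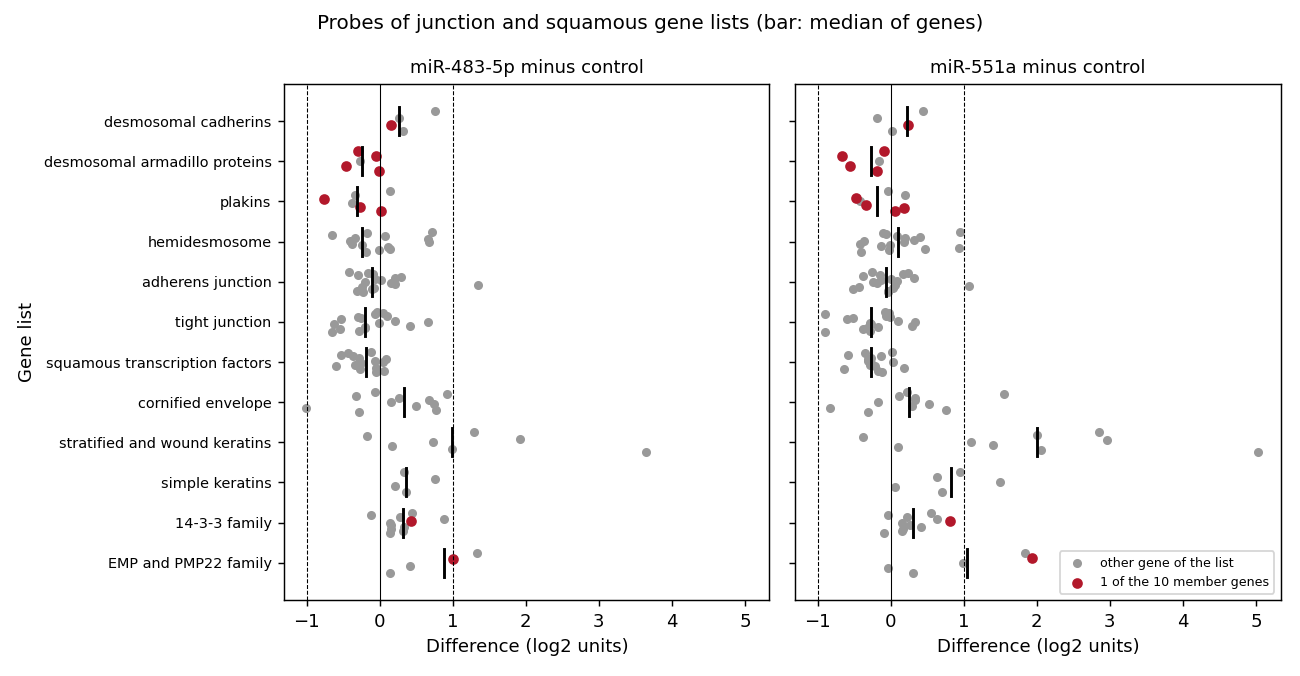
Differences from control in log2 units for tested probes of 12 gene lists, miR-483-5p left and miR-551a right; red points are probes of the 10 member genes, black bars the median over genes, dashed lines 2-fold. Some stratified and wound keratins reach far past the upper line, up to 5.03, while cadherins, armadillo proteins and plakins stay between both lines.

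SFN and EMP1 were also set beside their own families. All 7 genes of the 14-3-3 family were detected and all 7 lay above control in both comparisons, with medians of 0.32 and 0.30. Among all tested genes 48.8% and 49.3% lay above control. Besides SFN these included YWHAH at 0.34 and 0.42, YWHAQ at 0.32 and 0.16, YWHAG at 0.28 and 0.22 at the probe reading 1428.3 in control, and YWHAB at 0.16 and 0.17 at the probe reading 7849.1. No family probe of 11 reached 2-fold. With miR-551a SFN had the largest difference of the 11 probes, at 0.81. With miR-483-5p it did not: a YWHAE probe undetected in control differed by 0.88 (at least 1.31-fold higher) and a YWHAB probe by 0.44. The YWHAE probe detected on all arrays differed by -0.12 and -0.04, so the probes of YWHAE disagreed in direction.

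Of the EMP1 relatives, PMP22 was higher too. At the probe detected on all arrays it read 536.4, 714.4 and 1087.3 and was 1.34-fold (0.42) and 1.98-fold (0.98) higher. Another PMP22 probe, undetected in control, exceeded it by at least 1.29-fold and 1.82-fold. A further PMP22 probe was detected only with miR-551a, at least 1.05-fold above control. EMP3 differed by 0.15 and -0.03, and EMP2 was not detected.

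SFN is a p53 target, and a list of 20 other p53 targets was examined beside it. No probe of 21 and 22 tested was 2-fold higher, where 0.574% and 0.983% of all tested probes were. In the list 11 of 15 and 11 of 16 genes lay below control, with medians of -0.15 and -0.23, whereas 48.8% and 49.3% of all tested genes lay above it. CDKN1A, a cell cycle inhibitor that p53 induces, read 1746.1, 1257.6 and 1105.2 and differed by -0.57 and -0.85. With miR-551a, probes of SESN2 and TP53INP1 were undetected and at least 1.12-fold and 2.30-fold lower, and neither passed 2-fold without background correction. The other 4 of 15 and 5 of 16 genes lay above control, among them FAS (0.90 and 0.65 at its detected probe) and PERP (0.90 and 0.45). SFN thus differed from control in the direction of FAS and PERP and opposite to CDKN1A. The part of p53 was not tested. Of 10 EMT factors and mesenchymal markers 3 were detected (CDH11, TWIST1 and ZEB2), and none of their probes reached 2-fold.

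Promoter sequence was available for 5 of the 10 members in the RefSeq table (GRCh38.p14; EMP1, SFN, DSP, JUP and DSG2). The 250 bases before the start of EMP1 and SFN, which were higher together, are shown with those of DSP, which lay at control. Capitals mark TGANTCA, a looser form of the AP-1 motif TGA(C/G)TCA, and GGGCGG, the GC box, on either strand.
EMP1, chr12:13196476-13196725, plus strand: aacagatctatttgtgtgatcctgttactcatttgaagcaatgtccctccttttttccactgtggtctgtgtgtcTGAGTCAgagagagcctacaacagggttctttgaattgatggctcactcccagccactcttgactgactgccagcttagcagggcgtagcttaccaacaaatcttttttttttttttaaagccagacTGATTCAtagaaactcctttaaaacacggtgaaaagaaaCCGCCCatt
SFN, chr1:26862899-26863148, plus strand: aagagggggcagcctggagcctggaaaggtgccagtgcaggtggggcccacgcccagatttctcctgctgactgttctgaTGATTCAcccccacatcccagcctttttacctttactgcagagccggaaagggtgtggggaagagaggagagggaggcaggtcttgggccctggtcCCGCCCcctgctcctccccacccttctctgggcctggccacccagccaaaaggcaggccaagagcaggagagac
DSP, chr6:7541421-7541670, plus strand: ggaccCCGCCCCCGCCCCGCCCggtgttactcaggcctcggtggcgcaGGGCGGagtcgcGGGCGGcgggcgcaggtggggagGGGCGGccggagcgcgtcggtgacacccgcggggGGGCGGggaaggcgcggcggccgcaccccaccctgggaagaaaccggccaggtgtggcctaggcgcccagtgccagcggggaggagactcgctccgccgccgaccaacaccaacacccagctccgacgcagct

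EMP1 held TGANTCA at 2 places, beginning 175 and 48 bases before the start, and SFN at 1, beginning 170 bases before it. Only the EMP1 match at 175 reads TGAGTCA, while the other EMP1 match and that of SFN read TGATTCA, outside the stricter motif. None of the DSP, DSG2 and JUP promoters held TGANTCA, and 6.57% of 35116 promoters of this length did. The table holds 2 promoters for JUP and 6 for the 5 genes. GGGCGG was found in 5 of these 6, the exception being 1 of the JUP promoters, and in 42.6% of all promoters, with 7 matches in DSP, some of them overlapping each other. The TEAD motif GGAATG (11.9% of all promoters), AACNGGTT of the grainyhead-like factors (1.49%), the p53 half-site (5.57%) and the NF-kB motif (5.21%) were found in no member promoter, and GCCNNNGGC of TFAP2 (19.8%) was found in that of DSG2 and in the JUP promoter that held GGGCGG. The motifs were chosen with the expression values known, and a match describes letters in this window and nothing more. The EMP1 window was 42.4% G and C, that of SFN 62.8% and that of DSP 78.0%, against a median of 58.0%.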

How the data were processed

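Per the labels' protocols, total RNA came from a miRVANA extraction and was turned into biotinylated cRNA by the MessageAmp kit. The authors deposited non-normalized intensity values of 48803 probes with a detection score, a fraction from 0 to 1 that lies near 1 for bright probes, per the file headers and values. Scanner software is not given in the sources used here. In the authors' normalized intensity table, which was not used, every value under miR-483 equals 0.934 times the raw miR-551a value, so it holds no miR-483-5p measurement.

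The 3 arrays were background-corrected from the detection scores and quantile-normalized together with neqc (limma 3.58.1, R 4.3.3, offset 16), which gives log2 intensity; the submitters' deposited values carry no log2 scale. A probe with a symbol was tested in a comparison if its score passed 0.99 on at least 1 array. Where 1 array did not detect it, the dim value was raised to that array's lowest detected level and the ratio given as "at least". Calls count measured differences of at least 2-fold. Of 25200 symbols 15712 were current, 3021 matched 1 gene by an older name and 6467 were kept. Array number limits the precision. The steps were tested on simulated data.

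Members, lists and motifs were chosen with earlier results of these data known. Named are all members, list genes past 2-fold, up to 4 relatives in each close family, and the 3 nearest genes to members past 2-fold in both arrays. Alternatives were other background, offset, scaling and detection settings.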

Additional observations from a re-analysis of the deposited data

How the results depend on the processing

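No paired analysis was possible because each group had 1 array. For miR-483-5p against control, the count of member probes at least 2-fold higher was 2, and 1 under median centring, 1 with an offset of 50, 0 without background correction and 0 with median scaling without background correction; EMP1 then differed by 0.98, 0.86, 0.77 and 0.73. TRIM29 at its first probe differed by 1.29, 1.08, 0.94 and 0.92 in the same settings. The counts for miR-551a against control (3 higher) and between the overexpressing arrays (0), and all counts of lower probes (0), were equal in the 7 alternatives. With 1 array per group no unadjusted p exists for these counts of 0.

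The member median for miR-483-5p was 0.01 with the brightest probe of a gene, -0.09 at a detection score above 0.95, -0.02 under median centring, 0.00 without background correction, -0.04 without a detection filter, 0.00 with an offset of 50 and 0.02 for probes detected on both arrays. For miR-551a these medians were -0.02, -0.05, 0.05, -0.01, -0.08, 0.00 and 0.05, and 0.06 with median scaling without background correction. Between the overexpressing arrays the median was 0.16 under median centring, 0.09 without background correction, 0.13 with median scaling without background correction and 0.12 with an offset of 50. The signs of the first 2 medians thus depend on the setting. Of 260 recomputed probe values 256 kept their sign, and the 4 others had a main size of at most 0.09. Without background correction the miR-551a differences were 1.58 for EMP1, 1.41 and 1.01 for TRIM29 and 0.67 for SFN, and 15 of 120 list counts were lower and 0 higher; 2 and 5 stratified and wound keratin probes were then 2-fold higher, and 0 and 1 of the EMP family. Dim probes (PPL, PKP3 and the second probes of DSP and JUP) lie near the background, where the correction weighs most: PPL differed by -0.36 and PKP3 with miR-551a by -0.30 without it.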
